A study of Mus musculus with 10 samples.

Results

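Immunity-related GTPases (IRGs) were followed by RNA sequencing in murine keratinocytes and CD8+ T cells that had been kept apart or together. The members were the genes whose name in all 10 deposited gene tables matched a list of 10 symbols. Of these, Irgm1, Irgm2, Igtp, Iigp1, Tgtp1, Tgtp2, Gm4841, Ifi47, and Gm4070 were found, i.e., 9 of 25814 genes, and Gm12250 was not analysed here. The 10 libraries formed 5 groups of 2. Primary keratinocytes from the tails of adult C57/B6 mice were cultured alone or with pre-activated CD8+ T cells. Splenic CD8+ T cells, isolated with CD8 microbeads, were activated by αCD3/CD28 antibodies, kept thereafter in keratinocyte (mixed) medium, or co-cultured with keratinocytes. No genetic change is named in the labels for any group, and the T cells of all 3 T-cell groups had been activated for 1 d. T cells were washed off before keratinocytes were lysed, and both fractions were sequenced separately, but each still held transcripts of markers of the other cell type. The mixed-medium T cells had 1 d of culture more than the activated ones. The co-culture is given as 1 d in the labels and methods and as 1 h in the design text. Libraries of keratinocytes and activated T cells carry the replicate numbers 1 and 2, while those of the other 2 groups carry none and are called a and b.

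IRGs are large GTPases that IFN-γ and, for many members, type I IFN induce in mouse cells, with IRF factors among the regulators. They control intracellular parasites and bacteria by loading onto the membrane of the vacuole in which the pathogen lives, and by breaking it. Regulatory IRGs of the GMS class (Irgm1, Irgm2, and Igtp, which encodes Irgm3) carry a methionine instead of a lysine in the nucleotide-binding P-loop, sit on membranes of the host cell and hold back the effector IRGs there. Effectors of the GKS class (Iigp1 for Irga6, Tgtp1 and Tgtp2 for Irgb6, and Ifi47 for Irgd) carry the lysine. Gm4841 is a less studied gene of this class, and Gm4070 belongs to the related very large inducible GTPases.

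The P-loop codons are shown because they separate regulators from effectors. Coding sequences were taken from the GENCODE vM21 annotation of GRCm38. The 24 bases around the class-defining codon, which is in capitals, read as follows for the genes on chromosome 11.
Irgm1, chr11:48866761-48866784, minus strand: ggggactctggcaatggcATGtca
Irgm2, chr11:58219695-58219718, plus strand: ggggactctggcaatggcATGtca
Igtp, chr11:58206275-58206298, plus strand: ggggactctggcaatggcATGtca
Tgtp1, chr11:48987667-48987690, minus strand: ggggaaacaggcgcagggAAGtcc
Tgtp2, chr11:49059534-49059557, minus strand: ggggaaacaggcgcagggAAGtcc
Ifi47, chr11:49095648-49095671, plus strand: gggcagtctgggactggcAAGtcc
These stretches were identical in the 3 regulators and identical in both Tgtp copies. All lie in coding exons. Over their coding sequences the regulators were 67.3 to 73.1% identical to each other in 3 pairs, and 57.9 to 62.7% identical to the effectors in 15 pairs. Tgtp1 and Tgtp2 differed at 4 of 1248 coding bases (99.7% identity). The remaining 9 pairs of effectors were 61.3 to 66.7% identical. The coding sequence of Gm4070 is much longer, with 7284 bases against 1224 to 1272 bases in the other members, and was not aligned.

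Promoters are shown because the members moved together in these libraries. RefSeq promoter windows (GRCm38.p6, 250 bases before to 50 bases after a gene's start) were given for 6 of the 9 members. They were searched on both strands for the core of the interferon-stimulated response element (ISRE, GAAANNGAAA), to which IRF factors bind, and for the γ-activated sequence (GAS, TTCNNNGAA), a motif of many genes that IFN-γ induces. The matches are in capitals.
Igtp, chr11:58199501-58199550, plus strand: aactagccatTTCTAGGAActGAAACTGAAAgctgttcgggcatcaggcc
Irgm2, chr11:58214892-58214951, plus strand: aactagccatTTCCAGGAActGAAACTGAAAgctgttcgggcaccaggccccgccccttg
Tgtp1, chr11:48992285-48992344, minus strand: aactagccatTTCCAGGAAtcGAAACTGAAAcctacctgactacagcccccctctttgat
Tgtp2, chr11:49064244-49064303, minus strand: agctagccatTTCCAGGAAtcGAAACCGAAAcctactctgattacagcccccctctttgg
Irgm1, chr11:48871431-48871460, minus strand: cctgtttcaaGAAATAGAAACCGAAActga
Igtp, Irgm2, Tgtp1, and Tgtp2 each held 1 GAS followed after 2 bases by 1 ISRE core. The GAS began 45 (Igtp), 75 (Irgm2), 88 (Tgtp1), and 81 (Tgtp2) bases upstream of the start. The stretch of Irgm1 lies upstream of the RefSeq start but inside an exon that GENCODE gives for this gene. Its promoter held 2 ISRE cores that overlap each other, 30 and 24 bases upstream, and no GAS, and that of Ifi47 held neither motif in this window. Among 32851 promoters of the same length, 3.44% held the ISRE core, 8.3% the GAS, and 0.454% both. The arrangement of both at this distance was counted after it had been seen in the members. It occurred in 5 promoters (0.0152%), namely those of the 4 members and of Gm12185, a predicted gene with which Tgtp1 and Tgtp2 share transcript sequence. No window was given for Iigp1, Gm4841, and Gm4070.

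The libraries held 12864931 to 18019609 exon reads each. Levels are given as RPKM, i.e., exon reads scaled to exon length and library size, and 3 reads over 1 kb of exons equal 0.158 to 0.212 RPKM. Summed RPKM of 14 keratinocyte marker genes reached 22267 to 25232 in co-cultured keratinocytes and 23349 to 23490 in keratinocytes alone. In mixed-medium T cells this sum was 8.74 to 13.2, and in co-cultured T cells it was 395 to 575. Cd207, which marks Langerhans cells, was listed at 0 in all libraries. Other immune-cell markers were present. Summed RPKM of 5 myeloid markers was 49.8 to 71.3 in keratinocytes alone and 39.8 to 68.6 in co-cultured keratinocytes. For 4 B-cell markers the sum was 29.4 to 31.0 in activated, 44.2 to 92.3 in mixed-medium, and 16.6 to 27.2 in co-cultured T cells. What part cells with these transcripts had in the members' levels was not tested. Keratinocyte libraries also held reads of T-cell genes. Summed RPKM of 8 T-cell markers was 110 and 434 in keratinocytes alone, 142 and 778 in co-cultured keratinocytes (replicate 1 and 2 each), and 1925 to 2646 in co-cultured T cells. Of these markers Cd3d, Cd3e, Cd3g, Cd2, Lck, and Cd4 were measured in both keratinocyte groups at over 10 RPKM, whereas Cd8a and Cd8b1 were near 0. In these bulk samples fewer cells of a type and less RNA per cell cannot be told apart.

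How well the counts resolve single members differed widely between them. Irgm1 (chromosome 11, 48861968 to 48871683) and Gm4841 (chromosome 18, 60268301 to 60273267) were read almost entirely by reads that map to 1 place, i.e., by 99.997 and 99.8% of exon reads over all libraries. Iigp1 (chromosome 18, 60376029 to 60392627) reached 96.9%, and Irgm2 (chromosome 11, 58199618 to 58222782) 94.6%. None of the reads of Tgtp1 (chromosome 11, 48985327 to 48994172) and Tgtp2 (chromosome 11, 49057194 to 49064206) was unique in any library. Of all 50-base windows in their transcripts, 81.2 and 86.6% also occur in another gene, mostly in the other copy. The remaining windows occur in no other gene, and why none of the reads was unique was not tested. Gm4070 (chromosome 7, 105895139 to 105953967) had 2.93% unique reads, and 95% of its windows also occur in Gvin1, another very large GTPase.

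Igtp (chromosome 11, 58199556 to 58207591) and Ifi47 (chromosome 11, 49076587 to 49096974) had only 5.96 and 2.80% unique exon reads. Yet 11.8 and 4.81% of their windows are shared with other genes. Both overlap on their own strand with the region of another gene in the deposited tables, Igtp with Irgm2 and Ifi47 with Olfr56. In all 10 libraries the number of unique exon reads of Igtp and Ifi47 equalled the number of unique reads across exon-exon junctions. The levels of Irgm1, Irgm2, Iigp1, and Gm4841 therefore rest on unique reads, and those of the other 5 members on reads that were placed among copies or overlapping genes.

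**Figure D1:**
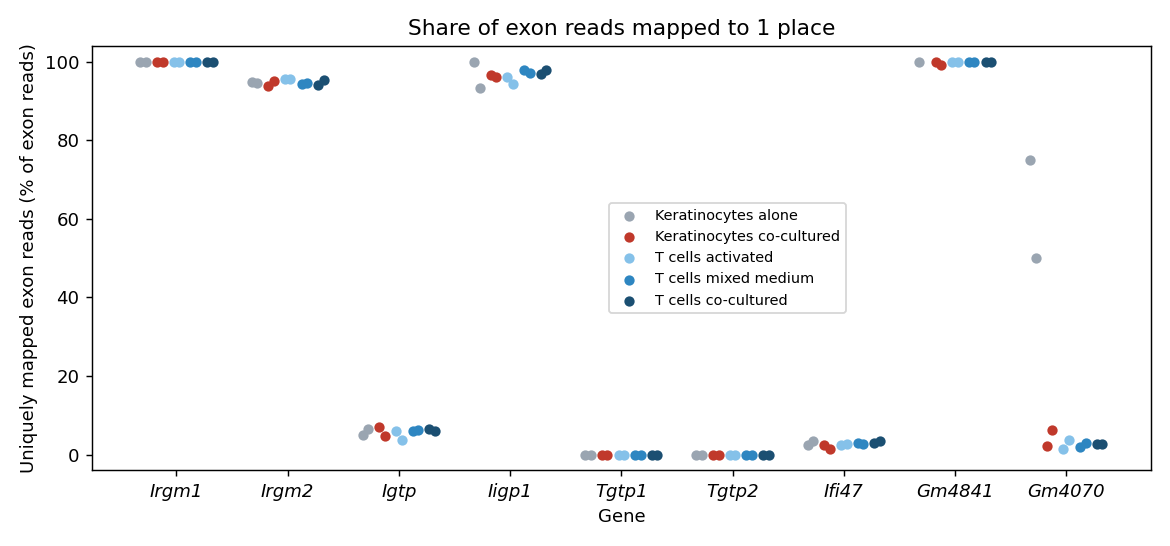
Percentage of exon reads that map to 1 place (y axis) for each member (x axis), with 1 point per library coloured by group. Irgm1, Irgm2, Iigp1, and Gm4841 lie above 93% in each library, Tgtp1 and Tgtp2 lie at 0%, and the high points of Gm4070 in keratinocytes alone rest on 4 and 6 reads.

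Co-culture with activated CD8+ T cells was compared with keratinocytes alone to ask how T cells alter the transcription of keratinocytes. The paper gives a mix of keratinocyte and X-VIVO medium for co-cultures, but does not name this mix for keratinocytes alone. Effects of T cells and of medium therefore cannot be told apart in this comparison. All 9 members were higher in both co-cultured libraries than in both libraries of keratinocytes alone, against 19.7% of 12515 tested genes that did not overlap in this direction. The paper already lists all of them but Gm4070 among the genes induced in co-cultured keratinocytes. This count was therefore known in part beforehand, and the Tgtp copies are not separate members in it. The summed level of the 9 members was 20.5 (replicate 1) and 69.0 RPKM (replicate 2) in keratinocytes alone, and 733 (replicate 1) and 455 RPKM (replicate 2) after co-culture. None of them passed edgeR's test over all genes, whereas DESeq2 called 8.

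Among the regulators, Irgm1, which is needed for resistance to a broad range of intracellular pathogens, stood at 3.47 and 9.91 RPKM in both libraries of keratinocytes alone, as compared with 193 and 119 RPKM in co-cultured keratinocytes. Its groups were far apart, and the difference was 4.58 ± 0.68 on the log2 scale (edgeR, ± SE, 2 against 2 libraries). Irgm2 was listed at 1.88 and 4.74 RPKM alone and at 43.2 and 29.1 RPKM after co-culture (log2 difference 3.49 ± 0.58). Igtp, the third regulator, was listed at 6.93 and 22.2 RPKM alone and at 169 and 135 RPKM after co-culture (log2 difference 3.43 ± 0.67). In keratinocytes alone Igtp was thus the most abundant regulator per exon length, and after co-culture Irgm1 (156 ± 52.3 RPKM, SD, n = 2) and Igtp (152 ± 24.5 RPKM, SD, n = 2) were close to each other. Their libraries overlapped.

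Among the effectors, the Tgtp copies stood at very low levels in keratinocytes alone. Tgtp1 was listed at 0.592 and 3.04 RPKM alone and at 190.1 and 64.9 RPKM after co-culture (log2 difference 6.15 ± 1.11). Tgtp2 was listed at 1.41 and 4.77 RPKM alone and at 31.6 and 13.96 RPKM after co-culture (log2 difference 2.91 ± 0.76). Because no read of either copy was counted as unique, their sum is safer than either copy. It can still depend on read placement, since both share windows with Gm12185 (5.64% for Tgtp1 and 4.88% for Tgtp2). The sum was 111 and 394 reads alone and 10608 and 4078 reads after co-culture, with a log2 difference of 5.05 ± 0.96.

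Iigp1, the effector whose structure and cycle are best known, was listed at 0.287 and 2.26 RPKM alone and at 41.1 and 20.5 RPKM after co-culture (log2 difference 4.62 ± 1.08). The 2 libraries of keratinocytes alone differed by 7.87-fold for this gene, the widest gap of the 8 members with reads in both. Ifi47 had the smallest difference of the 9. It was listed at 5.88 and 22.01 RPKM alone and at 51.7 and 67.4 RPKM after co-culture (log2 difference 2.16 ± 0.71).

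Few reads were counted on Gm4841 and Gm4070 in keratinocytes alone. For Gm4841 3 and 0 reads were counted alone and 345 and 137 reads after co-culture. The ratio per exon read was 184, with a 95% exact interval of 62.5 to 895 that covers counting error only. For Gm4070 4 and 6 reads were counted alone and 748 and 390 reads after co-culture (ratio 130, interval 70.5 to 272). Nearly all reads of Gm4841 were unique, while most of those of Gm4070 cannot be told apart from those of Gvin1. Unique reads of Gm4070 numbered 3 and 3 alone and 17 and 24 after co-culture. Its ratio thus rests mostly on how shared reads were placed, and its absence from keratinocytes alone is not shown. Gvin1 itself was listed at 0.515 and 1.32 RPKM alone and at 8.80 and 0 RPKM after co-culture.

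**Figure D2:**
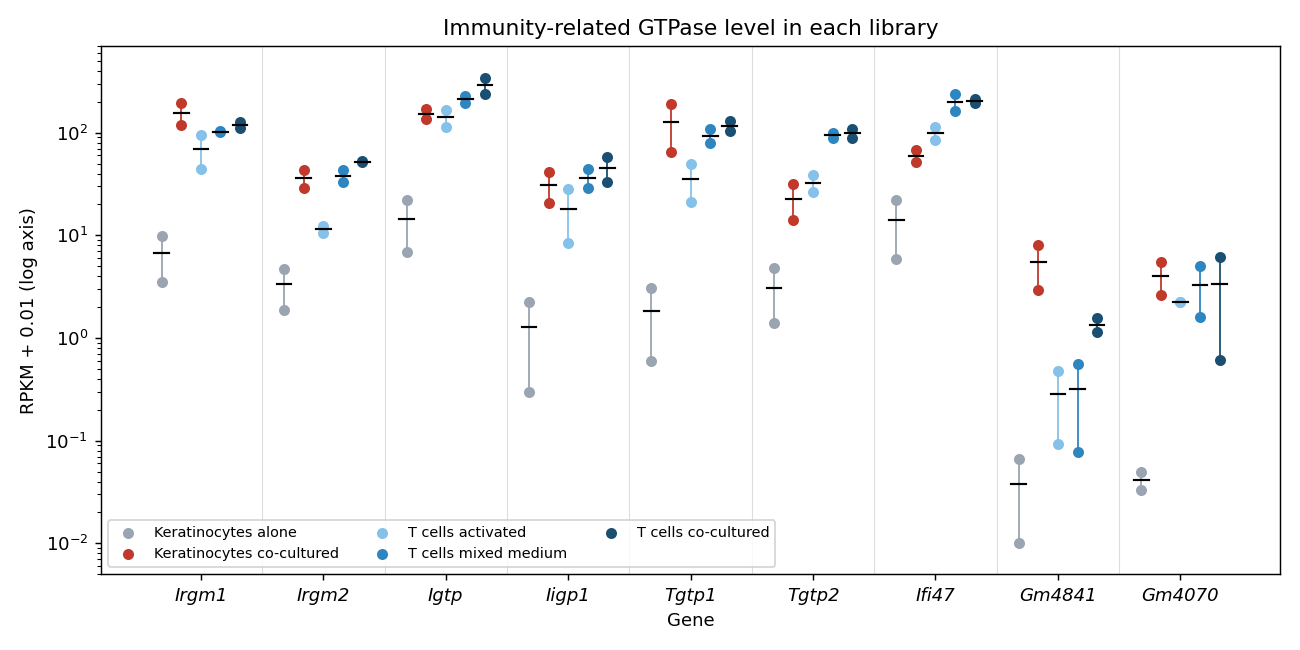
Level of each member in RPKM (y axis, log scale, 0.01 added) by gene (x axis). Each point is 1 library, a line joins the 2 libraries of a group and the black bar is their mean. For all 9 genes both libraries of keratinocytes alone (grey) lie below both libraries of co-cultured keratinocytes (red).

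With 2 libraries per group, none of the 9 members had an adjusted p under 0.05 in edgeR's quasi-likelihood test (Benjamini-Hochberg, adjusted p of 0.434 for Gm4070 to 0.658 for Igtp, Iigp1, Tgtp2, and Ifi47). The same held for all 12515 genes (0%). All 9 were higher at an unadjusted p under 0.05, from 0.000108 for Gm4070 to 0.0295 for Ifi47, against 3.08% of all genes. The median log2 difference was 4.58 for the members and 0.02 for all genes. DESeq2 called 8 members higher, i.e., all but Ifi47, against 0.703% of all genes, whereas limma on log2(RPKM + 1) called 0 members and 0% of all genes. These counts and the median were known in part beforehand, since the paper lists all members but Gm4070 as induced in co-cultured keratinocytes. When replicate 1 of the co-cultured keratinocytes was left out edgeR called 7 members, against 0.816% of 13113 genes called higher. Without replicate 2 it called Irgm1, Tgtp1, Gm4841, and Gm4070, against 0.163% of 12900 genes. In both fits the lone library is assumed to vary like the other group.

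The replicates deviated in a shared way. In keratinocytes alone 8 of 9 members were higher in replicate 2 (1.67- to 7.87-fold), with Gm4841 as the exception. In co-cultured keratinocytes 8 of 9 were higher in replicate 1 (1.26- to 2.93-fold), with Ifi47 as the exception. T-cell markers summed to higher values in replicate 2 of both groups. Thus the higher summed level of the members stood beside the higher sum of T-cell markers in keratinocytes alone, and beside the lower one in co-cultured keratinocytes. Cd8a and Cd8b1 in co-cultured keratinocytes reached 0.324 and 0.278% of their levels in co-cultured T cells, whereas the members reached 23.1% (Tgtp2) to 408% (Gm4841) of their levels there. For Cd3d, Cd3e, Cd3g, Cd2, Lck, and Cd4 this share was 18.6 to 78.6%, and the part of the cells that carry these transcripts in the result was not tested.

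**Figure D3:**
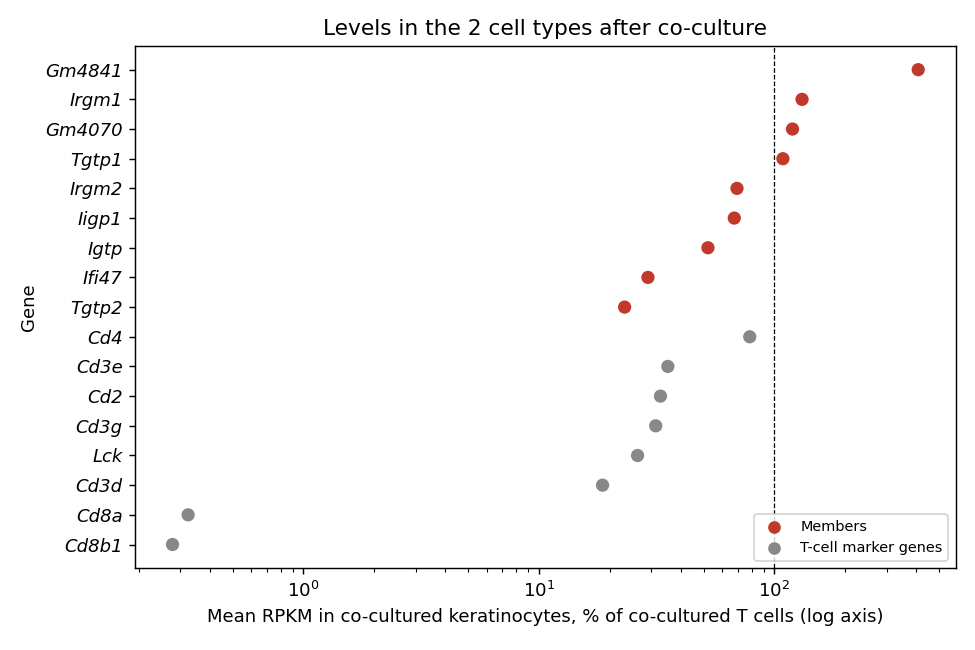
Mean RPKM in co-cultured keratinocytes as a percentage of that in co-cultured T cells (x axis, log scale) for members (red) and T-cell marker genes (grey), with the dashed line at 100%. The members lie between 23.1 and 408%, Cd3d, Cd3e, Cd3g, Cd2, Lck, and Cd4 between 18.6 and 78.6% and thus partly among the members, and Cd8a and Cd8b1 at 0.324 and 0.278%.

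Genes of the IFN pathway were measured beside the members. IFN-γ and its receptor activate JAK kinases, and Irf1 is among the genes that are then induced. In keratinocytes 3 of 15 tested genes of this list were higher at an unadjusted p under 0.05 and none was lower, and none passed the adjusted test. Irf1 was listed at 3.19 and 5.72 RPKM alone and at 58.3 and 62.3 RPKM after co-culture (log2 difference 3.83 ± 0.45, adjusted p = 0.434). The other 2 were Irf9 and Stat2, which act in the type I IFN response. The receptor gene Ifngr1 differed by 0.35 ± 0.56 and Ifngr2 by -0.13 ± 0.31 on the log2 scale.

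Of IFN ligands only Ifng and Ifnb1 were on the list, and both were low in the keratinocyte libraries. Ifng was listed at 1.26 and 2.63 RPKM alone and at 1.36 and 5.92 RPKM after co-culture, and Ifnb1 at 0 in all 10 libraries. Guanylate binding proteins (GBPs), which attack the same vacuoles as the IRGs, were higher at an unadjusted p under 0.05 for 5 of 10 tested genes. Gbp2 and Gbp3 differed by 6.43 ± 0.84 and 6.25 ± 0.85 on the log2 scale. Thus Gbp2 was listed at 2.74 and 6.47 RPKM alone and at 579 and 203 RPKM after co-culture. None of the GBPs passed the adjusted test.

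In T cells the members were already high after activation. The summed level was 504 (replicate 1) and 315 RPKM (replicate 2) in activated T cells, 792 (a) and 769 RPKM (b) in mixed medium, and 1041 (a) and 827 RPKM (b) after co-culture. T cells in mixed medium exceeded keratinocytes alone for 8 of 9 members (edgeR over all 10 libraries, adjusted p of 0.000756 for Tgtp2 to 0.00502 for Iigp1), against 12.8% of 13394 genes called higher. The log2 differences of these 8 ranged from 3.56 (Irgm2) to 6.69 (Gm4070). Gm4841 did not pass (3.45 ± 1.48, adjusted p = 0.0987).

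T cells kept in mixed medium for 1 further day were compared with activated T cells. The medium and the further day of culture cannot be told apart in this comparison. Irgm2 and Tgtp2 rose, and 2.32% of 11863 tested genes were called higher in this comparison. Irgm2 was listed at 10.6 and 12.2 RPKM in activated T cells and at 43.2 (a) and 33.2 RPKM (b) in mixed medium, and rose by 1.87 ± 0.30 on the log2 scale (adjusted p = 0.0186, edgeR). Tgtp2 was listed at 38.7 and 26.5 RPKM in activated T cells and at 99.9 and 88.5 RPKM in mixed medium, and rose by 1.68 ± 0.30 (adjusted p = 0.0219, edgeR). The sum of both Tgtp copies also passed, with 1.62 ± 0.35 (adjusted p = 0.0351, edgeR).

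The other 7 members were not called. Tgtp1 differed by 1.56 ± 0.40 (adjusted p = 0.0581, edgeR) and Ifi47 by 1.18 ± 0.33 (adjusted p = 0.0748, edgeR). For 7 of 9 members, i.e., all but Gm4841 and Gm4070, both mixed-medium libraries exceeded both activated libraries, against 23.1% of all genes. These 2 calls were lost when activated T cells replicate 1, mixed medium a or mixed medium b was left out, which gave 0 calls each, and Tgtp2 was lost without activated T cells replicate 2. Without co-cultured T cells a, Tgtp1 was called in addition.

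Co-cultured T cells, also cultured for longer, were compared with the same activated T cells, so both comparisons share their controls. Irgm2, Tgtp1, Tgtp2, and Igtp rose, and 4.59% of all genes were called higher. Irgm2 reached 52.8 (a) and 51.6 RPKM (b), a rise of 2.38 ± 0.31 on the log2 scale (adjusted p = 0.00693, edgeR). Tgtp1 was listed at 49.3 and 21.1 RPKM in activated T cells and at 130.2 (a) and 105 RPKM (b) after co-culture, a rise of 1.94 ± 0.41 (adjusted p = 0.0245, edgeR). For Tgtp2 the levels after co-culture were 108 and 89.1 RPKM, a rise of 1.79 ± 0.30 (adjusted p = 0.0129, edgeR).

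Igtp was listed at 168 and 114 RPKM in activated T cells and at 345 (a) and 237 RPKM (b) after co-culture, a rise of 1.23 ± 0.31 (adjusted p = 0.0424, edgeR). It lost its call when any 1 of the 6 T-cell libraries was left out, while Irgm2 and Tgtp2 kept theirs in all 6 of these fits. Tgtp1 lost its call without activated T cells replicate 2, and Iigp1 was called without activated T cells replicate 1. Ifi47 missed the threshold with 1.25 ± 0.33 (adjusted p = 0.051, edgeR), with 113 and 85.5 RPKM against 214 (a) and 196 RPKM (b). Both co-cultured libraries exceeded both activated libraries for 8 of 9 members, Gm4070 being the exception, against 24.1% of all genes. Since Tgtp1 and Tgtp2 hold 0 unique reads and those of Igtp are few, only Irgm2 was called with unique reads alone, against 4.67% of 11422 genes called higher.

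When co-cultured T cells were set against those in mixed medium, no member was called by edgeR, DESeq2 or limma, and none reached an unadjusted p under 0.05 in edgeR. Of all genes 0.261% were called higher, and 2.7% were higher at an unadjusted p under 0.05. Log2 differences ranged from 0.04 ± 0.88 (Gm4070) to 2.11 ± 1.29 (Gm4841). For Irgm1, Irgm2, Igtp, and Gm4841, i.e., 4 of 9 members, both co-cultured libraries were above both mixed-medium libraries, against 13.8% of all genes. Thus Irgm2 was listed at 43.2 and 33.2 RPKM in mixed medium and at 52.8 and 51.6 RPKM after co-culture (0.51 ± 0.29). Keratinocyte markers in co-cultured T cells stood at 2.04% of their summed level in co-cultured keratinocytes. Most of this sum came from Sprr1a, a gene of the cornified envelope, with 367 RPKM in co-cultured T cells against 382 RPKM in co-cultured keratinocytes, and the other 13 markers together stood at 0.505%. Their part in these values was not tested.

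**Figure D4:**
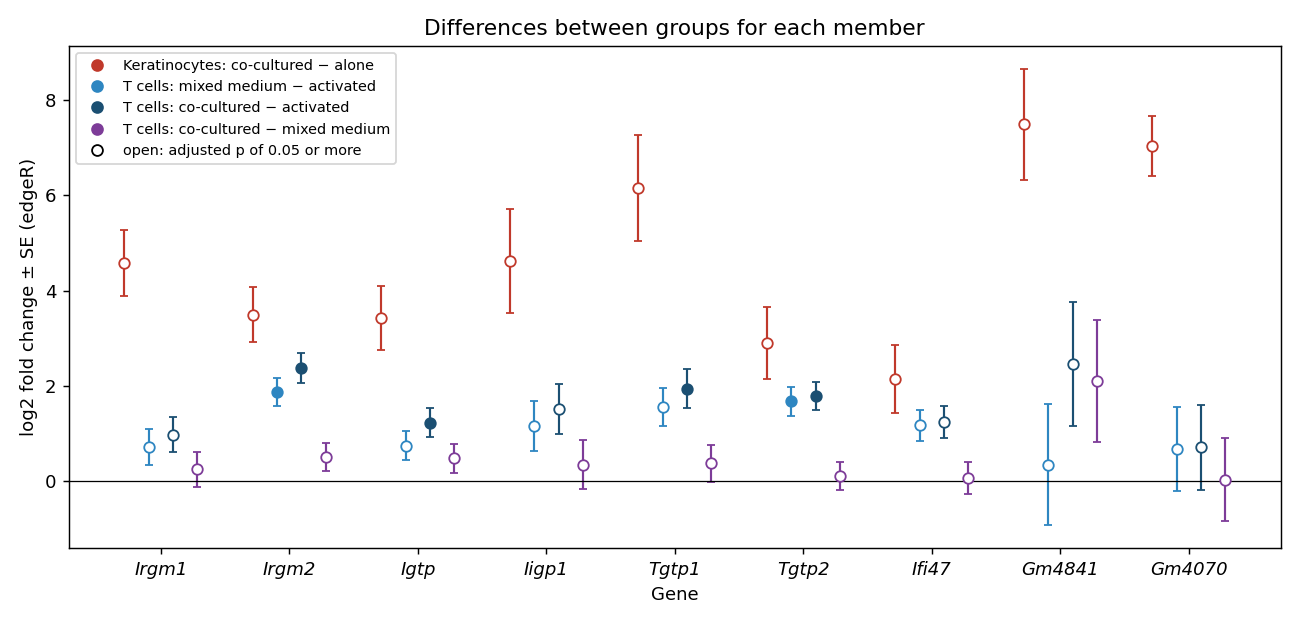
Log2 fold change ± SE (y axis, edgeR) of each member (x axis) in 4 comparisons. Filled points have an adjusted p under 0.05, which holds for Irgm2 and Tgtp2 in mixed medium and for Irgm2, Igtp, Tgtp1, and Tgtp2 in co-cultured T cells, each against activated T cells. The red points of keratinocytes are open and have the widest error bars for 7 of the 9 genes.

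The IFN-γ gene went the other way in T cells. Ifng was listed at 613 and 589 RPKM in activated T cells, and fell by 6.36 on the log2 scale in mixed medium to 5.95 (a) and 7.197 RPKM (b) (SE 0.49, adjusted p = 0.00345, edgeR). In co-cultured T cells it was listed at 3.26 and 6.20 RPKM (adjusted p = 0.00162 against activated T cells, edgeR). Irf8 fell as well, from 168 and 94.5 RPKM to 27.7 and 25.7 RPKM in mixed medium (adjusted p = 0.0181, edgeR). Ifnar2, a subunit of the type I IFN receptor, rose from 10.6 and 9.72 RPKM to 35.7 and 22.9 RPKM (adjusted p = 0.027, edgeR). In mixed medium 1 of 15 tested genes of the IFN list was called higher and 2 lower, and 2 of 10 GBPs (Gbp9 and Gbp10) were called higher. After co-culture Gbp6 was called in addition to these 2.

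Whether co-culture acted differently on both cell types was tested by an interaction term in 8 libraries. The baselines were keratinocytes alone, for which the mixed medium is not named, and T cells in that medium. The members summed to 20.5 and 69.0 RPKM in the former and to 792 and 769 RPKM in the latter. What part medium and start level had in the result was not tested. For all 9 members the log2 difference was larger in keratinocytes, from 2.08 ± 0.87 (Ifi47) to 6.97 ± 1.54 (Gm4070). No member passed the adjusted test in edgeR, while all 9 had an unadjusted p under 0.05 (2.47% of 13202 genes in this direction). The interaction uses the keratinocyte difference again, which was known in part beforehand. Of all genes 0.053% were called larger in keratinocytes, among them Irf1 (3.73 ± 0.54, adjusted p = 0.0364, edgeR) and Gbp3 (6.50 ± 0.88, adjusted p = 0.029, edgeR). Irgm1 came nearest among the members, with 4.30 ± 0.72 (adjusted p = 0.0648, edgeR), and was called when replicate 2 of keratinocytes alone was left out, against 0.0146% of 13689 genes. DESeq2 called 6 members, namely Irgm1, Irgm2, Igtp, Iigp1, Tgtp1, and Gm4070, against 0.454% of all genes called larger in keratinocytes.

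After co-culture the mean level in keratinocytes ranged from 23.1% (Tgtp2) to 408% (Gm4841) of that in T cells. Libraries of both cell types overlapped for Irgm1, Iigp1, Tgtp1, and Gm4070. Irgm2, Igtp, Tgtp2, and Ifi47 were higher in both T-cell libraries and Gm4841 was lower, and the share of all genes without overlap was not determined here. Tgtp2 and Ifi47 were higher in co-cultured T cells than in co-cultured keratinocytes, by 2.21 ± 0.56 (adjusted p = 0.0225) and 1.84 ± 0.58 (adjusted p = 0.0484, edgeR over all 10 libraries), against 6.73% of genes called higher. The call of Tgtp2 was lost without co-cultured keratinocytes replicate 2 and without either library of co-cultured T cells. That of Ifi47 was kept only in the 2 fits that left out a library of keratinocytes alone, of 10 such fits. Once the Tgtp copies were summed their difference was 0.57 ± 0.63 (adjusted p = 0.551, edgeR), so the call of Tgtp2 did not hold for the sum. Gm4841 was the only member with a mean in co-cultured keratinocytes above 3 times that in T cells (5.46 ± 3.59 against 1.34 ± 0.29 RPKM, SD, n = 2 each). This difference was not called by edgeR (-1.89 ± 1.17, adjusted p = 0.269) or DESeq2 (adjusted p = 0.244). It was called by limma on log2(RPKM + 1) (-1.35, adjusted p = 0.0386), against 18.9% of genes called lower in T cells, but not on log2(RPKM + 0.1) (adjusted p = 0.138).

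How the reads fell on the Tgtp copies differed between groups. In keratinocytes alone 0.48 (replicate 1) and 0.728 reads (replicate 2) were counted on Tgtp1 for 1 read on Tgtp2, and in co-cultured keratinocytes 6.87 and 5.30 reads. The T-cell libraries lay between 0.908 (activated, replicate 2) and 1.45 (activated, replicate 1). Both co-cultured keratinocyte libraries were therefore above all 8 other libraries. With a coding identity of 99.7% and 0 unique reads, it cannot be told apart whether the copies or the exons outside their shared part gave this split.

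**Figure D5:**
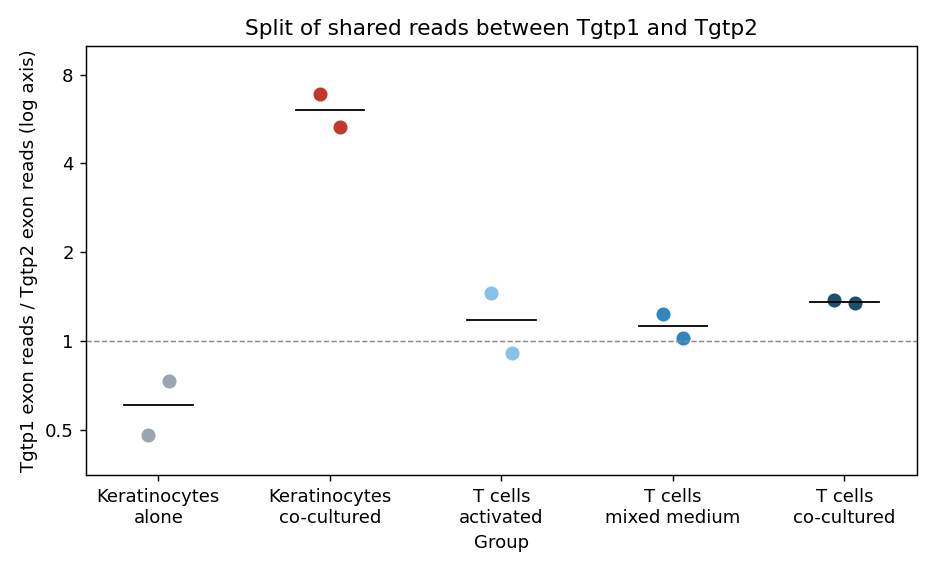
Exon reads of Tgtp1 divided by those of Tgtp2 (y axis, log scale) in each group (x axis), with 1 point per library and a bar at the mean. Co-cultured keratinocytes lie at 6.87 and 5.30, and the other 8 libraries lie between 0.48 and 1.45.

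The makeup of the family also differed by group. Igtp and Ifi47 together gave most of the summed RPKM in keratinocytes alone, with 33.8 and 32.2% for Igtp and 28.6 and 31.9% for Ifi47 in replicate 1 and 2. After co-culture of keratinocytes Ifi47 gave 7.05 and 14.8%, while Irgm1 gave 26.3 and 26.1% and Tgtp1 25.9 and 14.3%. The share of Tgtp1 depends on how reads were placed on both Tgtp copies. In the 6 T-cell libraries Igtp gave 25.5 to 36.3% and Irgm1 12.1 to 18.9%. By class, the 3 regulators summed to 24.6 ± 17.4 RPKM in keratinocytes alone and to 344 ± 86.8 RPKM after co-culture, and the 5 effectors to 20.1 ± 16.9 and 246 ± 108 RPKM (SD, n = 2 each). In co-cultured T cells both classes stood at like levels, with 462 ± 86.5 RPKM for regulators and 468 ± 61.1 RPKM for effectors.

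By mean level, keratinocytes alone came last for all 9 members, and neither of their libraries overlapped with those of the next group. The share of all genes with this order over the 5 groups was not determined. Against co-cultured keratinocytes alone, 19.7% of 12515 tested genes were lower in keratinocytes alone without overlap. Irgm1, Tgtp1, Gm4841, and Gm4070 had their highest mean in co-cultured keratinocytes, and Irgm2, Igtp, Iigp1, Tgtp2, and Ifi47 in co-cultured T cells. At the top, co-cultured keratinocytes overlapped with co-cultured T cells for Irgm1, Tgtp1, and Gm4070, but not for Gm4841. Mixed medium and co-cultured T cells overlapped for Iigp1, Tgtp1, Tgtp2, Ifi47, and Gm4070. Among all 25814 genes, Igtp stood at rank 215 by mean RPKM in co-cultured T cells, and Irgm1 moved from rank 6109 in keratinocytes alone to rank 427 in co-cultured keratinocytes.

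The profile over the 10 libraries was most like that of Irf1 among 8744 genes with a mean of at least 5 RPKM in 1 group. The root mean square difference between the profile of Irf1 and the mean profile of the members was 0.287 on the log2(RPKM + 1) scale. Next came Zbp1 (0.394), Psmb10 (0.400), Tap1 (0.447), and Gbp6 (0.501), which encode a nucleic acid sensor, a subunit of the immunoproteasome, a peptide transporter and a GBP. Of single members, Irgm1, Igtp, and Tgtp1 lay nearest to Iigp1, and Iigp1 nearest to Igtp (0.386). Gm4841 lay nearest to Phf11d (0.459) and Gm4070 to Gbp7 (0.265). These values describe libraries that share 5 groups and are not independent of them.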

How the data were processed

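RNA was analysed from 10 libraries in 5 groups of 2, grouped by the labels. Libraries of poly(A) RNA (NEBNext Ultra II) were sequenced by the authors as single-end reads, which were mapped to GRCm38 with the CLC Genomics Workbench at default RNA-Seq settings. The annotation release is not given in the sources used here, nor is the use of strand. The authors deposited counts of exon reads per gene, in total and uniquely mapped, without normalization, and RPKM values. Reads that match several places were placed on copies by the authors' software, so counts of near-identical genes can be shifted between them. The members and gene lists were chosen with earlier results of these data known. All members and, of other genes, those of fixed lists, marker genes, and the genes with the nearest profiles are named. Olfr56 was named after its overlap had been seen. Of the IFN pathway list, 1 gene is not reported here and was left out of its counts.

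Total exon reads were tested with glmQLFit and glmQLFTest of edgeR 4.0.16 (R 4.3.3) after filterByExpr and TMM, with Benjamini-Hochberg adjustment over all genes. The 4 keratinocyte, the 6 T-cell, 8 (interaction) or all 10 libraries were fitted. Nothing says that replicates came from separate mice, so p-values measure the spread between libraries only. Replicates differed beyond sampling noise. As alternatives, unique reads, library sizes without TMM, all genes with reads, a minimum of 10 reads in every library, DESeq2 1.42.0, limma 3.58.1 on log2(RPKM + 1) or log2(RPKM + 0.1), summed Tgtp copies, the replicate block, all 10 libraries in 1 fit, and the omission of each library were tried. The test was checked on simulated counts. Between 78.2 and 87.2% of exon reads were unique, and intervals cover counting error only. Sequences were read from GENCODE vM21 and RefSeq with Python 3.11.15 and aligned with Biopython 1.88.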

Additional observations from a re-analysis of the deposited data

How the results depend on the processing

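With 2 libraries per group, calls of single members depended on tool and filter. DESeq2 called 8 members in keratinocytes instead of 0, 4 instead of 2 in mixed medium, and 6 instead of 0 for the difference between cell types. Without a filter on low counts these were 1, 5, and 4. Calls over all genes changed as well. In mixed medium DESeq2 called 861 of 11863 genes higher, where the main fit called 275. Without the filter 11 of 15824 genes were called higher in keratinocytes and 843 of 15291 in mixed medium. For the difference between cell types 24 of 16607 were then called larger in keratinocytes. At least 10 reads in every library gave 1 instead of 2 calls between the co-cultured cell types, as did log2(RPKM + 0.1) and summed Tgtp copies, while log2(RPKM + 1) added Gm4841, which was lower in T cells. With unique reads 7 members were tested, and the calls were 1 (mixed medium), 1 instead of 4 (co-cultured against activated T cells), 5 instead of 8 (mixed medium against keratinocytes alone), and 1 (between co-cultured cell types). In the same order, 262 and 533 of 11422 genes and 1728 and 898 of 12885 genes were called higher. In limma on log2(RPKM + 0.1) there were 0 calls in mixed medium and 2 in co-cultured against activated T cells. All 10 libraries in 1 fit gave 1 call in each of these. Leaving out 1 library gave 0 to 7 calls in keratinocytes, 0 to 3 in mixed medium, 2 to 4 in co-cultured against activated T cells, 0 between co-cultured and mixed-medium T cells, 0 to 1 for the difference between cell types, 8 for mixed medium against keratinocytes alone, and 0 to 2 between co-cultured cell types.

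The log2 difference in keratinocytes was above 0 for each member tested under all alternatives run, of which unique reads and at least 10 reads in every library left 7 to test. With the replicate block edgeR called 0 members in keratinocytes. Deviations of same-numbered keratinocyte libraries correlated with r = 0.558 over 12515 genes, but had the same sign for only 2 of 9 members, and with 2 pairs the numbers were not taken as pairing. Signs turned in 16 of 969 values of single genes, none of them called. Values that turned when 1 library was left out are given as their range over these fits. In mixed medium against activated T cells this was -1.90 to 2.12 for Gm4841 and -0.26 to 1.25 for Gm4070. In co-cultured against activated T cells it was -1.60 to 1.56 for Gm4070, and log2(RPKM + 0.1) gave -0.15. Between co-cultured and mixed-medium T cells it was -0.25 to 0.46 for Ifi47 and -2.27 to 0.97 for Gm4070, which turned to -0.22 and -0.48 on the log2(RPKM + 1) and log2(RPKM + 0.1) scales. Between the co-cultured cell types it was -2.50 to 0.56 for Gm4070 and -0.55 to 0.81 for Tgtp1, and Tgtp1 turned to 0.0169 in DESeq2 and to 0.0684 and 0.0706 on the log2(RPKM + 1) and log2(RPKM + 0.1) scales. The cause of these changes was not tested. Depth limits Gm4841 and Gm4070 in keratinocytes alone, where 3 and 10 reads were counted in all. For Gm4070 the placement of reads shared with Gvin1 is a further limit.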

Other observations

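Further IRGs and very large GTPases were measured beside the members. Of 9 found genes of this list 7 were tested in keratinocytes, and 2 of them, Gm5431 and F830016B08Rik, were higher after co-culture at an unadjusted p under 0.05, while none passed the adjusted test in edgeR. Both were listed at 0 RPKM in keratinocytes alone, and at 1.24 and 0.612 (Gm5431) and at 1.497 and 0.423 RPKM (F830016B08Rik) after co-culture. Irgq, an IRG-like gene without a known IFN response, stood at 12.1 and 8.54 RPKM without and at 7.73 and 3.89 RPKM with T cells (log2 difference -0.77 ± 0.41, adjusted p = 0.658, edgeR). In T cells Irgc1 was listed at 0.0839 and 0 RPKM after activation, at 1.55 (a) and 0.518 RPKM (b) in mixed medium, and at 1.82 (a) and 2.56 RPKM (b) in co-culture. It was called higher in co-culture than after activation (adjusted p = 0.0329, edgeR), but neither in mixed medium against activation (adjusted p = 0.074, edgeR) nor in co-culture against mixed medium (unadjusted p = 0.283, edgeR).

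Genes of the autophagy conjugation system, which takes part in loading IRGs onto vacuoles, had a median log2 difference of -0.07 in keratinocytes, beside 0.02 for all genes. None of 11 passed the adjusted test in edgeR, and 1 of them, Map1lc3a, was lower at an unadjusted p under 0.05. Map1lc3a, a gene of the LC3 family, was listed at 81.6 and 89.2 RPKM alone and at 50.7 and 42.4 RPKM after co-culture. In T cells it was listed at 0.588 and 2.81 RPKM after activation, at 11.1 (a) and 7.61 RPKM (b) in mixed medium, and at 11.7 (a) and 18.4 RPKM (b) in co-culture. It was called higher in co-culture than after activation (log2 rise 3.34 ± 0.78, adjusted p = 0.034, edgeR), as the only one of 11 genes of this list. In mixed medium against activation the log2 difference was 2.57 ± 0.76 (adjusted p = 0.0822, edgeR), and in co-culture against mixed medium it was 0.77 ± 0.70 (unadjusted p = 0.306, edgeR).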
